A study of Mus musculus with 4 samples.

Results

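The chromosome contacts of the HoxA cluster were compared in motor neurons (MN) of a wild-type (WT) line and of a deletion line, whose label is Δ5|6:7|9. Of the 479 HindIII fragments listed, 461 had a score above 0 in both MN libraries and make up the comparison. Fragments were matched by start and end, and the log2 ratio of the deletion-line score to the WT score was taken for each. The MN pair are 2 of the 4 libraries of the study, which also holds stem cells (ESC) of each line. Both MN groups came from mouse ESC grown with Lif, 1 µM of the MEK inhibitor PD0325901 and 3 µM of the GSK3 inhibitor CHIR99021. Embryoid bodies then received 1 µM all-trans-retinoic acid and 0.5 µM of the smoothened agonist SAG on day 2. The genotype is the only difference that the labels give between the 2 groups. The labels do not say whether each line is a single clone, nor what share of the cells had become motor neurons. 5C measures no RNA, so motor neuron identity could not be checked against marker genes and rests on the labels.

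5C (chromosome conformation capture carbon copy) reads ligation junctions between the fragments of a chosen region with a primer pool. An insulation score condenses these contacts into a value per fragment. Read conventionally, a low value means few contacts passing over the fragment, and a dip in the profile marks a boundary between domains. The direction is not stated in the files, so "boundary" below means a dip of the score. CTCF is a zinc-finger protein that binds DNA and halts the extrusion of loops by cohesin at such boundaries. The Hox genes encode homeodomain transcription factors that set position along the body axis, and they are switched on in the order in which they lie along the chromosome. Retinoic acid, made by the somites beside the neural tube, turns on the early, anterior HoxA genes in the nascent spinal cord, while Polycomb proteins keep the later, posterior genes silent.

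The deletion line is named for a CTCF site between Hoxa5 and Hoxa6 and another that separates Hoxa7 from Hoxa9. In the gene order of RefSeq (assembly GRCm38.p6, used for names and neighbours only), coordinates rise from Skap2 through the cluster to Hoxa13 and on to Evx1 and Hibadh. The site between Hoxa5 and Hoxa6 has 6 Hoxa genes on its high-coordinate side. On its low-coordinate side are, among others, Hoxa2, which patterns the hindbrain, Hoxa3 and Hoxa4, which act in the neck, and Hoxa5, which acts at the cervical level and in the lung. The site between Hoxa7 and Hoxa9 has 4 on its high side. Hoxa6 and Hoxa7, trunk genes, thus lie between the sites. Hoxa9, Hoxa10 and Hoxa11, which pattern posterior trunk and limb, and Hoxa13, which patterns the hand, foot and genital tubercle, lie beyond both. Hoxa3 does not sit wholly on one side, since its annotated span also covers Hoxa4, Hoxa5 and Hoxa6. The lncRNA gene Mira lies between Hoxa6 and Hoxa7, and the microRNA gene Mir196b between Hoxa9 and Hoxa10. No gene map of mm9, the build of the scores, was used here. Fragments are therefore placed towards the Skap2 side or the Hoxa13 side of a boundary, and no single fragment is assigned to a gene.

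RefSeq promoter windows, from 250 bases before to 50 bases after a gene's start, were used for 9 Hoxa genes, with 2 windows for Hoxa10. All 10 windows are on the minus strand, so the window of Hoxa5 opens towards Hoxa6 and that of Hoxa7 towards Hoxa9, into the 2 intervals that the label names. Those intervals measure 270 bp and 4523 bp between the annotated genes of GRCm38.p6. Both windows are shown for that reason, 5′ to 3′ on the minus strand, with the match to a CTCF-like pattern in capitals. Hoxa5 is chr6:52204538-52204837 and Hoxa7 is chr6:52218524-52218823 in GRCm38.p6, which is not the build of the scores.
Hoxa5: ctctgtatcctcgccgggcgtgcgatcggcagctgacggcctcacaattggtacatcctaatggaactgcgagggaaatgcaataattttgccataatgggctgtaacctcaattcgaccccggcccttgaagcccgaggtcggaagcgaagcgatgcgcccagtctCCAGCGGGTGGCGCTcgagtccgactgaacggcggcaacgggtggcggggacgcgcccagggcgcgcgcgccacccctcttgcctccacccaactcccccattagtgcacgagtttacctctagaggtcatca
Hoxa7: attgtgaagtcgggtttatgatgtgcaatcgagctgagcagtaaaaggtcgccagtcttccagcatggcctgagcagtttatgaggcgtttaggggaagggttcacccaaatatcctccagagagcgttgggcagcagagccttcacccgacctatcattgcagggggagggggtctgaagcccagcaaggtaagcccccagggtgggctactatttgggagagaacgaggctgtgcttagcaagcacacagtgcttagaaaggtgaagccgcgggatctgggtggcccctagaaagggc
The pattern was the CTCF consensus of 15 letters, searched on both strands with at least 14 letters matching. It was chosen with these windows in view. The window of Hoxa5 holds a match, CCAGCGGGTGGCGCT, which keeps 14 letters and lies 83 to 69 bases before the start of Hoxa5. None of the other 9 Hoxa windows holds one, that of Hoxa7 included, and the window of Hoxa7 covers only a small part of its interval. Of all 32851 mouse promoter windows 1.43% hold a match. A match describes letters and does not show that CTCF bound there or that these bases were deleted.

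The MN tables differ in how they were written. Scores with 10 decimals that end in 5, as a mean of 2 shorter values often does, made up 53.6% of the WT MN table, 47.1% of the WT ESC table, 48.4% of the deletion-line ESC table and none of the deletion-line MN table. Of the 461 deletion-line MN scores 460 had at most 9 decimals, and the other was written to 16. The labels' protocols name 2 biological replicates per sample, and whether the deletion-line MN table holds both is not known. The part of this in any value of that library was not tested.

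In WT motor neurons the low point lay near the middle of the window taken for the cluster. In the deletion line the low point lay farther towards Hoxa13. The cluster window was taken as the 23 fragments from 52102714 to 52253465 of chromosome 6 in mm9. The lowest WT fragment, 52163062 to 52173421, scored 0.323 in WT but 0.867 with the deletion. The lowest deletion-line fragment, 52203349 to 52209630, scored 0.346 there and 0.437 in WT. The midpoints of these fragments lie 38.2 kb apart. A centre over all window fragments, weighted by length and by depth below a score of 1.0, lay 18.0 kb higher with the deletion. This centre is not that of the main dip alone. It takes in the low scores at the Skap2-side end of the window (0.653 in WT and 0.701 with the deletion). It also stops at the window's other end, where both lines still scored below 1.0. The WT low point was the lowest score of the whole region in its library, and the deletion-line low point was the second lowest in its own. Each line has 1 library, so there is no test of these differences and no spread between replicates to set them against. The boundary cannot be placed more finely than the fragments, whose median length in the window is 4733 bp. The low-point fragments are longer, 10360 bp for WT and 6282 bp for the deletion line. The bases from 52209631 to 52217059, next to the deletion-line low point, are on no scored fragment.

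**Figure D1:**
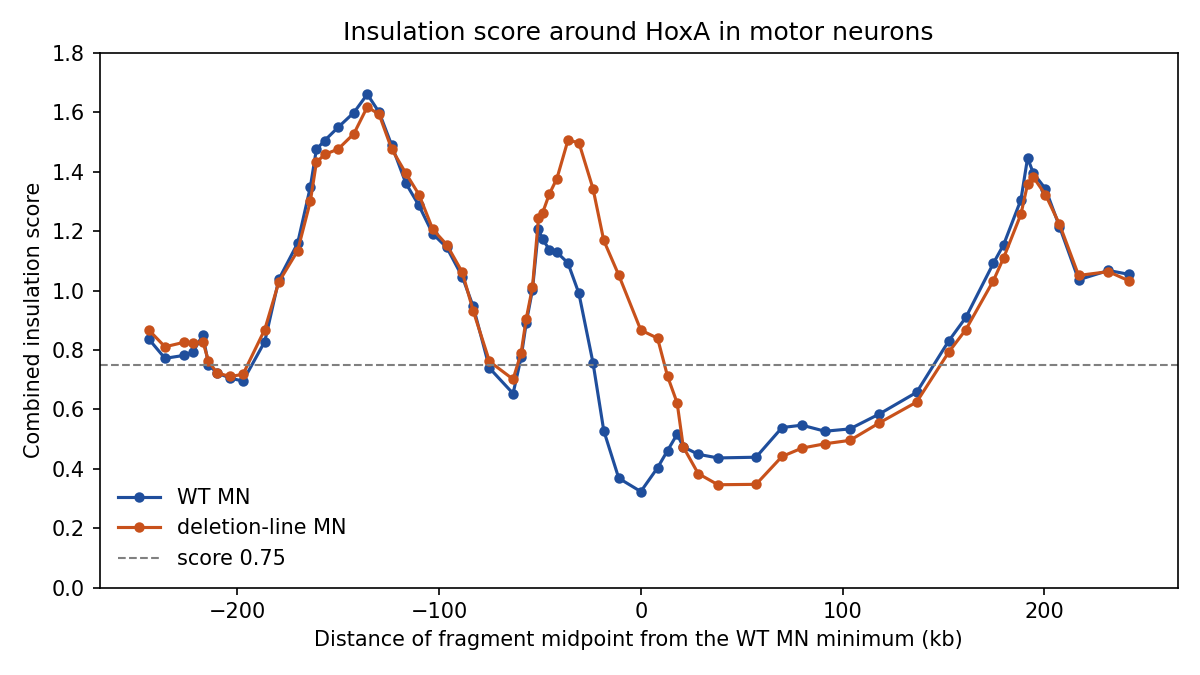
Combined insulation score (vertical axis) against the distance of each fragment's midpoint from the WT MN minimum in kb (horizontal axis), for WT MN (blue) and deletion-line MN (orange), 1 library each, within 250 kb. The WT dip at 0 kb (0.323) is absent from the deletion line (0.867 there), whose lowest score of the cluster lies at 38.2 kb (0.346); the dashed line is a score of 0.75.

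Going from the Skap2 side into the cluster, both lines first behaved alike. At 52102714 to 52107157, a local minimum in both libraries, the scores were 0.653 for WT and 0.701 for the deletion line. They then climbed together to 1.21 and 1.24 at 52116908 to 52118127, and 4 of these first 5 fragments differed by less than 0.05 on the log2 scale. From here the profiles parted. WT turned down at once, to 1.14 at 52121063 to 52124760 and 1.09 at 52130049 to 52134172. The deletion line climbed on to 1.33 and 1.51 at the same fragments, the latter its peak within the cluster. The peak thus sat at 52116908 to 52118127 for WT and at 52130049 to 52134172 with the deletion.

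Beyond its peak WT fell steeply. Its score was 0.991 at 52134173 to 52140923, 0.756 at 52140924 to 52148203 and 0.529 at 52148204 to 52151567. The deletion line scored 1.499, 1.34 and 1.17 at these fragments, so it was still high where WT had neared its floor. At 52151568 to 52163061 the scores were 0.368 and 1.05, a log2 ratio of 1.51, the highest of all 461 fragments. Peak to minimum, the WT score dropped 3.73-fold over 50.7 kb, a fall of 0.37 in log2 per 10 kb. The deletion-line score dropped 4.35-fold over 74.4 kb, a fall of 0.29 in log2 per 10 kb. The descent was therefore longer and less steep in the deletion line, and it ended at a similar level (0.346, next to 0.323).

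Past the WT minimum the order of the lines changed. WT rose to 0.403 at 52174043 to 52179067, 0.462 at 52179068 to 52183981 and 0.517 at 52183982 to 52188538. Over the same fragments the deletion line fell, from 0.840 to 0.711 and 0.622. The profiles met at 52188539 to 52190053, with 0.474 in each line and a log2 ratio of -0.0011. On the Hoxa13 side of this meeting point the deletion line was the lower one. At 52190054 to 52203348 the scores were 0.449 for WT and 0.384 for the deletion line, at 52217060 to 52233685 they were 0.439 and 0.348, and at 52233686 to 52242792 they were 0.539 and 0.441. The last fragment of the window, 52242793 to 52253465, scored 0.547 and 0.470. These differences are small beside those of the middle, with log2 ratios from -0.34 to -0.22.

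**Figure D2:**
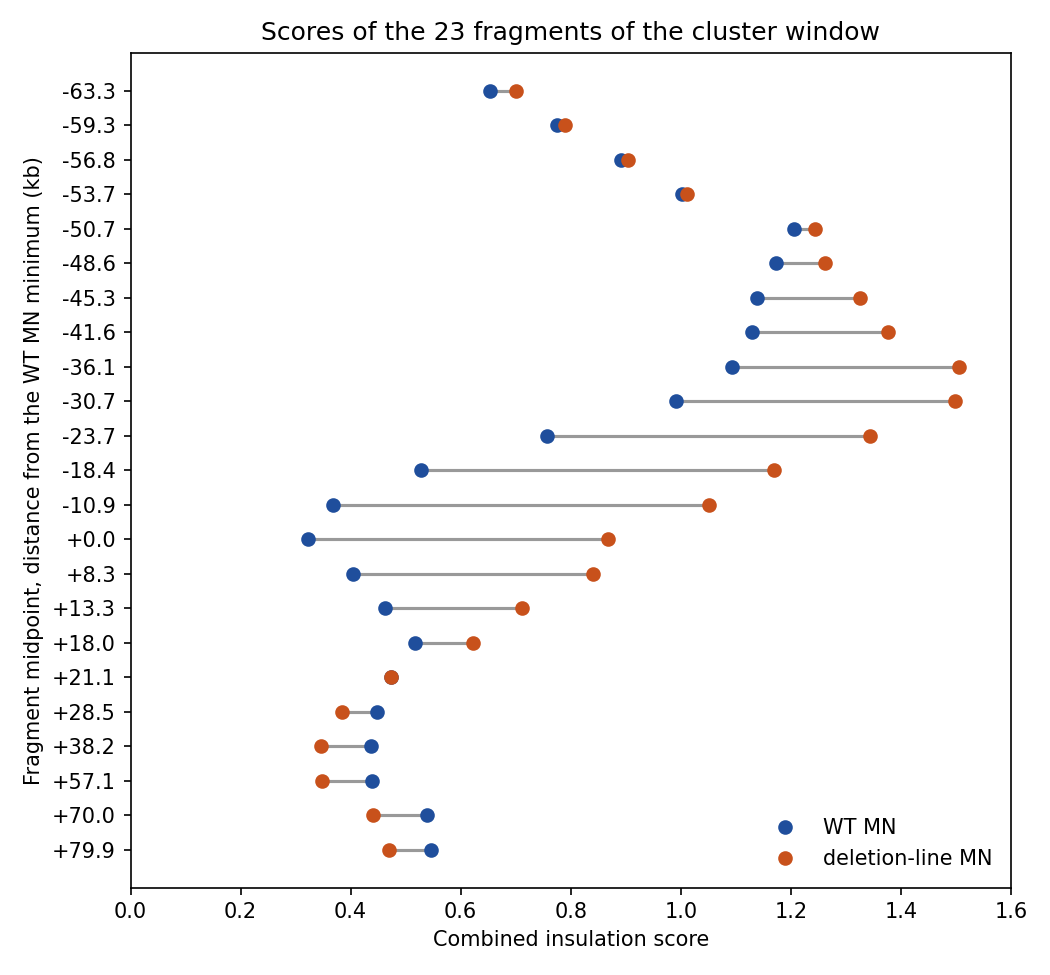
Scores (horizontal axis) of the 23 fragments of the cluster window in WT MN (blue) and deletion-line MN (orange), 1 library each, ordered by distance of the midpoint from the WT MN minimum in kb; grey lines join the values of a fragment. The gap opens from -48.6 kb, is widest at -10.9 kb (0.368 and 1.05), closes at 21.1 kb (0.474 in both) and turns round beyond.

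Scores below 0.5 formed 2 stretches in the WT cluster and 1 in the deletion line. They ran in WT over 4 fragments from 52151568 to 52183981, a stretch of 32.4 kb, and again over 4 fragments from 52188539 to 52233685, a stretch of 45.1 kb. Between these stood a single fragment at 0.517. In the deletion line the first stretch was absent, and scores below 0.5 ran over 8 scored fragments in a row, from 52188539 to 52278230 (89.7 kb). This stretch and the second WT stretch include the unscored bases from 52209631 to 52217059, and the first WT stretch includes 621 unscored bp. The number and length of the stretches rest on the cut of 0.5. Past the second stretch, up to 52278230, WT scored from 0.526 to 0.547, just above the cut. At a score of 0.6, with edges interpolated as described below, each line had a single stretch around its low point. It was 142 kb wide in WT and 112 kb wide with the deletion. The second WT stretch had a low point at 52203349 to 52209630 with a prominence of 0.24 in log2, just short of the 0.25 asked of a local minimum here. In the deletion line the minimum of the same fragment had a prominence of 2.22, and the mid-window minimum of WT had one of 2.44. These values do not rank the dips, since prominence was taken over the whole region. Those of 2.22 and 2.44 are each measured from a different peak outside the cluster. That of 0.24 is measured from the fragment at 0.517 between the WT stretches. From the peak within the cluster window, the fall to the minimum was 2.12 in log2 in the deletion line and 1.90 in WT.

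The low-scoring stretch moved at its Skap2-side edge and much less at its far edge. An edge was taken as the place where the score, followed outwards from the lowest fragment and interpolated between midpoints, first exceeds 0.75. The low-coordinate edge lay at 52144714 for WT and at 52180020 with the deletion, a shift of 35.3 kb towards Hoxa13. The high-coordinate edge lay at 52313477 and 52316830, a shift of 3.35 kb. Both places fall inside a single fragment of 28268 bp, beyond the cluster window, so this shift is below the resolution there. The stretch was 169 kb wide in WT and 137 kb wide with the deletion. The size of the low-side shift depends on the level: it was 38.5 kb at a score of 0.6, 26.0 kb at 0.9 and 23.3 kb at 1.0. The high-side shift was 8.03, 3.62 and 4.11 kb at these levels.

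Of all 461 fragments 7 were at least 1.5-fold higher in the deletion line, or 1.52%, and none was at least 1.5-fold lower. All 7 were in the cluster window, from 52134173 to 52183981, and none of the 395 fragments farther out, which end at 51901146 or start at 52392104 and are called the rest here, passed this fold. At 2-fold, 4 fragments were higher (0.868%), again all in the window. Of the 23 fragments of the window 17 were higher and 6 lower, where 40.1% of all 461 fragments were higher and 59.9% lower. The window holds 4.99% of the fragments and 84.9% of the summed squared log2 ratios. These are counts of neighbouring fragments, which share contacts: the Pearson correlation between log2 ratios of adjacent fragments was 0.92 over the region. Over a narrower HoxA bin, the 19 fragments from 52102714 to 52203348, the mean log2 ratio was 0.45 (SD 0.52 over fragments), with a median of 0.27. In the rest the log2 ratios had a median of -0.016 and ran from -0.33 to 0.16 (SD 0.059).

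**Figure D3:**
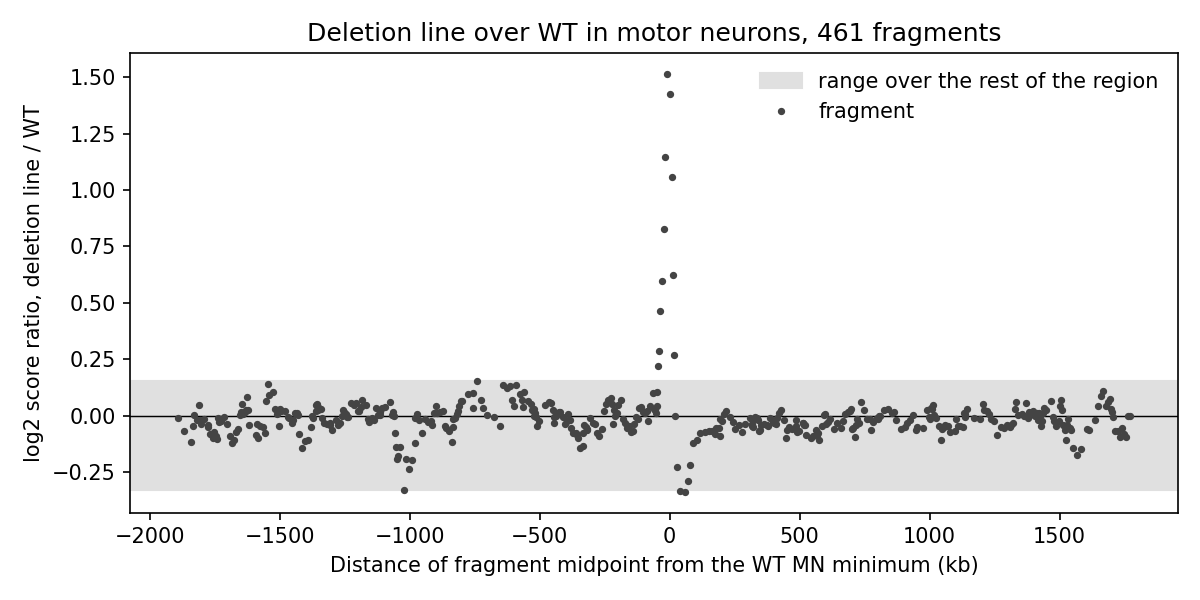
Log2 ratio of deletion-line to WT score in MN (vertical axis) for 461 fragments by distance from the WT MN minimum in kb (horizontal axis); the grey band spans the lowest to the highest value of the 395 fragments of the rest (-0.33 to 0.16). The 7 fragments at least 1.5-fold higher stand above the band near 0 kb, as do neighbours with log2 ratios from 0.22 to 0.46. The values beside them on the high-coordinate side reach -0.34.

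The change faded with distance from the WT minimum, and differently on each side. Towards Skap2 the mean log2 ratio was 1.16 over the 3 fragments within 25 kb, 0.33 over the 5 from 25 to 50 kb and 0.029 over the 9 from 50 to 100 kb. From 100 to 200 kb on that side, still towards Skap2, an adaptor protein gene, it was -0.011 over 15 fragments. Towards Hoxa13 it was 0.49 over the 4 fragments within 25 kb, which range from -0.0011 to 1.06, and then changed sign. It was -0.28 over the 2 fragments from 25 to 50 kb and -0.24 over the 4 from 50 to 100 kb. From 100 to 200 kb it was -0.069 over 10 fragments, all of them lower. In coordinates, 18 fragments in a row were higher, from 52087189 to 52188538 (101 kb, mean score 0.786 for WT and 1.05 for the deletion line). The next 18 in a row were lower, from 52188539 to 52373114 (185 kb, mean score 0.815 and 0.764). Runs of similar length occurred in the rest, up to 16 higher and 25 lower, so the length of a run is no mark of the cluster. The highest ratio of these 18 higher fragments was 1.51, where the highest of the rest was 0.16.

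The lower scores towards Hoxa13 are less separate from the rest than the higher scores in the middle. The lowest log2 ratio of the window, -0.34 at 52217060 to 52233685, is next to a lowest value of -0.33 in the rest, at 51140456 to 51149556 (0.523 for WT and 0.416 with the deletion). That fragment belongs to another dip, well below the cluster. There 12 of the 14 fragments from 51103593 to 51201221 were lower in the deletion line (mean log2 ratio -0.13), beside 245 of 395 in the whole rest. The 5 lowest ratios of the rest all came from this dip, and its floor at 51123835 to 51140455 was 0.329 for WT and 0.299 with the deletion. Neighbouring fragments share contacts, so the counts here are not of separate observations. Among the 21 fragments of the rest that scored below 0.6 in WT, 18 were lower in the deletion line, with a median log2 ratio of -0.14 (-0.016 over the whole rest). The other 3 make up a separate dip, from 51517414 to 51557857, where WT scored 0.451, 0.445 and 0.480 and the log2 ratios were 0.14, 0.12 and 0.13. Of the 6 fragments of the rest that scored below 0.5 in WT, 3 were higher and 3 lower. Low-scoring fragments away from HoxA thus went lower at some dips and higher at another, and the part of this in the Hoxa13-side values was not tested. The 5 highest ratios of the rest were small, from 0.13 to 0.16, and 4 of them lay between 51419287 and 51580109. The highest was at 51419287 to 51434076, with 0.773 for WT and 0.860 with the deletion.

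The stem cell libraries give a second view of the same deletion, with no library in common. At 52163062 to 52173421, the WT MN low point, the scores were 0.831 in WT ESC and 1.24 in deletion-line ESC. WT ESC thus lacked the mid-window dip, as did deletion-line MN. The lowest fragment of the window was 52190054 to 52203348 in WT ESC and 52217060 to 52233685 in deletion-line ESC. Their midpoints lie 28.7 kb apart, beside 38.2 kb in MN. The low-coordinate edge at a score of 0.75 lay at 52179721 in WT ESC and at 52189602 in deletion-line ESC, a shift of 9.88 kb, beside 35.3 kb in MN. Which state shows the larger shift depends on the level: in ESC it was 13.8 kb at a score of 0.6, 24.6 kb at 0.9 and 30.4 kb at 1.0, beside 38.5, 26.0 and 23.3 kb in MN. The low-coordinate edges of deletion-line MN and WT ESC differed by at most 4.64 kb at the 4 levels, less than the median fragment length. Their high-coordinate edges did not coincide: at 0.75 they lay at 52316830 in deletion-line MN and at 52283827 in WT ESC. The low-scoring stretch at that level was 137 kb wide in deletion-line MN and 104 kb wide in WT ESC. Over the 23 fragments of the window, the root mean square difference in log2 score from deletion-line MN was 0.28 for WT ESC, 0.46 for deletion-line ESC and 0.63 for WT MN. Over the rest it was 0.20, 0.20 and 0.061, so away from the cluster deletion-line MN was closest to WT MN. The log2 ratios of the deletion within the window ran from -0.11 to 0.60 in ESC and from -0.34 to 1.51 in MN. At 4 fragments of the window the score was at least 2-fold higher in MN, and the largest ratio in ESC fell short of 2-fold. With 1 library for each line and state, the difference between the states was not tested.

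**Figure D4:**
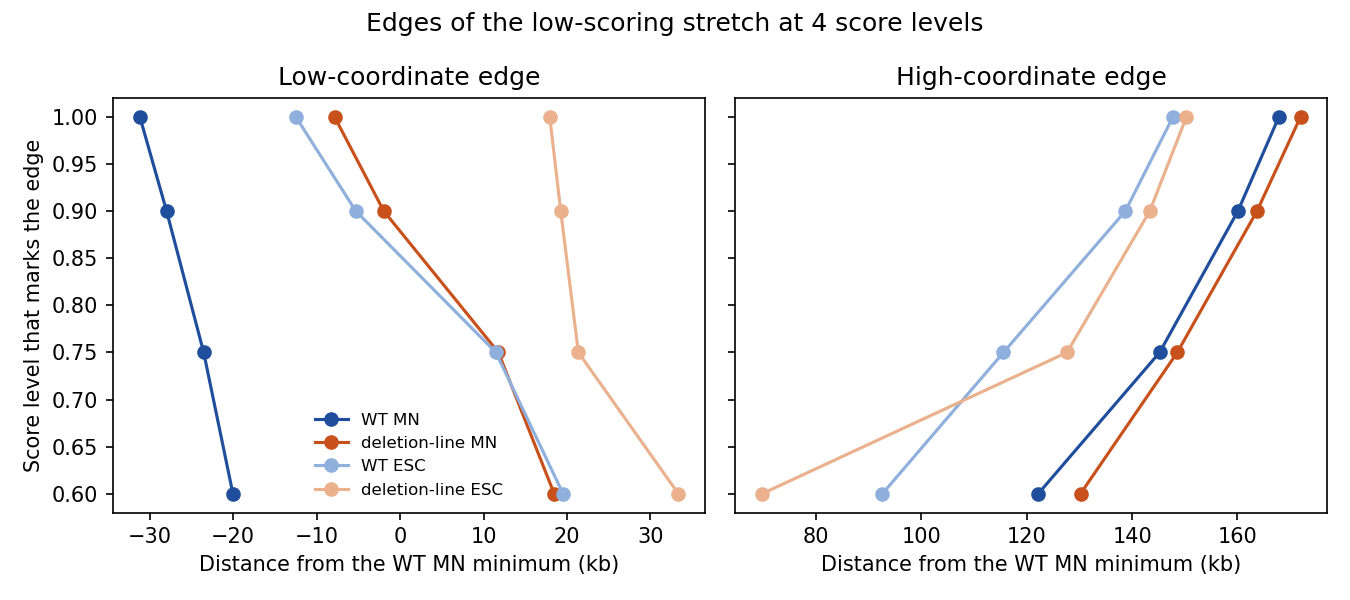
Place of the low-coordinate edge (left) and the high-coordinate edge (right) of the low-scoring stretch, in kb from the WT MN minimum (horizontal axis), at score levels of 0.6, 0.75, 0.9 and 1.0 (vertical axis), 1 library per line and state. On the left, WT MN stands apart from deletion-line MN, which runs within 4.64 kb of WT ESC. On the right, the MN lines are 3.35 to 8.03 kb apart, and WT ESC lies at lower coordinates than both.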

How the data were processed

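Scores were used for 4 libraries, of which the 2 MN libraries are compared. The authors deposited 1 combined insulation score per HindIII fragment and library, written by a combining script, per the file headers. The submitters' processing notes name Bowtie 1 and build mm9. Per the labels' protocols, cells were fixed in 1% formaldehyde for 10 min and primers annealed to 3C libraries of 2 biological replicates. For the score's window, the contact normalization and the way replicates were combined, no source used here gives details. Scores above 0 averaged 1.00 in every library, so they appear scaled to a common mean. Both ends of the region have 9 fragments with a score of 0, which were left out. Reads and contacts were not analysed here, which leaves the depth of each score unknown.

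Log2 ratios of deposited scores were computed without a pseudocount (Python 3.11.15, numpy 2.4.6, scipy 1.17.1). Local minima needed a prominence of 0.25 in log2. Every fragment of the cluster window could be named, and, away from the cluster, the 5 highest and 5 lowest ratios. With 1 library per group no test was run. The search for the lowest fragment and for edges was tried on simulated profiles, each with a single dip and independent noise. These data differ, since neighbouring fragments share contacts and WT has more than a single stretch below 0.5. The search for local minima by prominence was not tried this way. The comparison, window and lists were chosen with earlier results of these data known. The edges, the stretches below 0.5, the motif, the grouping of low-scoring fragments and the dip at 51103593 to 51201221 were chosen after seeing the data.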

Additional observations from a re-analysis of the deposited data

Results flagged for a closer look

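At 3 neighbouring fragments on the Hoxa13 side, the deletion line was lower than WT in MN and higher in ESC by at least 0.2 in log2 each way. They are part of 7 fragments in a row with these signs, from 52188539 to 52265585, of which the other 4 have smaller ratios in at least 1 of the states. The log2 ratio in MN minus that in ESC was -0.75 at 52190054 to 52203348, where the scores were 0.449 in WT MN, 0.384 in deletion-line MN, 0.430 in WT ESC and 0.619 in deletion-line ESC. It was -0.68 at 52203349 to 52209630 (0.437, 0.346, 0.458 and 0.581 in the same order). It was -0.60 at 52217060 to 52233685 (0.439, 0.348, 0.447 and 0.537). The largest difference of the window was at 52151568 to 52163061, where both states were higher with the deletion, with log2 ratios of 1.51 in MN and 0.55 in ESC and a difference of 0.96. These differences were not tested, since each line and state has 1 library, and the fragments share contacts.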

How the results depend on the processing

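With 1 library per group, no replicate could be left out. No paired analysis was possible because each group has 1 library and no test was run. Of 31 alternative values, 21 stayed within the allowed spread and 10 moved by more. The allowed spread was the SD of 0.059 of log2 ratios in the rest, 4.73 kb for places and at most 1.5 times for counts. No ratio or shift changed sign, and counts cannot. The 21 include values of the boundary shift whose outcome was fixed in advance, as given below. They also include the count of lower fragments at 2-fold, which could not exceed that at 1.5-fold (none). The alternatives for edges were chosen after seeing the data. The mean log2 ratio of the HoxA bin (0.45) became 0.27 as a median, 0.58 weighted by length, 0.39 without the fragment of the largest change, and 0.21 or 0.32 with the bin moved 50 kb lower or higher. The boundary shift of 38.2 kb became 18.0 kb when the weighted centre of all window scores below 1.0 was taken. That centre averages over both WT stretches below 0.5 and the Skap2-side minimum, and it stops at the window's end. It stayed at 38.2 kb with smoothing. Quantile normalization keeps the order of scores within a library, so it could not move the lowest fragment. A window 50 kb wider on each side could not move it either, since no score in the added part is lower than the low point of its library. Fragments higher by 1.5-fold (7) numbered 4 at 2-fold, and fragments lower (none) numbered 3 at the smaller fold that was tried. Local minima in the WT window (2) numbered 3 at a prominence of 0.1. The low-side edge shift of 35.3 kb became 26.0 kb at a score of 0.9 and 23.3 kb at 1.0. Depth is unknown, so its limit on these values cannot be given.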
